A study of Homo sapiens with 6 samples.

Results

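Adhesion G protein-coupled receptors (adhesion GPCRs) were examined in RNA-seq of LNCaP cells, an established line of luminal prostate cancer cells. The genes were chosen by symbol and level. Of 17297 genes in the table, 15 had a symbol starting with ADGR, and 9 of these reached a mean of at least 1 CPM (counts scaled to a common library total) over the 6 libraries. They were ADGRG6, ADGRL1, ADGRG1, ADGRA3, ADGRE5, ADGRV1, ADGRD1, ADGRB2 and ADGRA2. ADGRD1 was chosen by its fall in the same comparison, so its values are given as a description with no test, and it was left out of every count of called receptors.

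The study compared 1 stable line carrying the empty retroviral vector (pBabe-vector, genotype WT in the labels) with 1 stable line overexpressing GNA13 (pBabe-GNA13), the gene of the G protein subunit Gα13. Both lines were selected with puromycin, grown in RPMI with serum on plates for 48 h, with 3 biological replicates each. Because each condition was 1 line, the effect of the transgene and other differences between the lines cannot be told apart. In both lines 1 library carries the tag std (what it stands for is not given in the sources used here), and the libraries are named here as std, replicate 2 and replicate 3.

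Adhesion GPCRs join a long extracellular region, often with adhesion domains, to a receptor of the usual membrane-spanning type. Most cut themselves next to the membrane at an autoproteolysis site, and the end exposed when the outer fragment leaves can act as a tethered agonist. Several members, among them ADGRG1, ADGRL1 and ADGRE5, have been linked to Gα12 and Gα13, whereas ADGRD1 and ADGRG6 are known for coupling to Gαs and raising cyclic AMP.

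GNA13 itself checked the labels. It measured 820.1, 886.4 and 747.3 CPM in the std, replicate 2 and replicate 3 libraries of pBabe-GNA13 and 76.7, 69.4 and 65.4 CPM in the same order in pBabe-vector. The 2 lines did not overlap, and the mean was 11.6-fold higher in pBabe-GNA13 (log2 fold change 3.54, SE 0.12, edgeR quasi-likelihood test with Benjamini-Hochberg adjusted p = 9.12e-05). Library totals ran from 33002160 to 40628970 counts, so a floor of 3 counts equals 0.0738 to 0.0909 CPM before TMM normalization. All 9 luminal prostate markers had rows, with summed levels of 6424 to 9175 CPM in pBabe-GNA13 and 5546 to 8228 CPM in pBabe-vector. The 3 basal markers summed to 4.50 to 8.26 CPM against 2.38 to 2.48 CPM, the 3 fibroblast markers to 17.3 to 24.7 against 11.6 to 23.2 CPM, VWF of the endothelial markers to 14.6 to 30.5 against 6.54 to 20.6 CPM, and SYP of the neuroendocrine markers to 2.53 to 3.40 against 4.22 to 4.46 CPM, while the 4 immune markers were not analysed here. Within these sums KRT5 had 115, 0 and 128 counts in the std, replicate 2 and replicate 3 libraries of pBabe-GNA13 and 24, 0 and 19 in pBabe-vector, and COL1A2 had 96, 0 and 87 against 2, 0 and 3. Both genes were thus at 0 in replicate 2 of both lines. KRT14 and COL1A1 were not at 0 there, with 153 and 587 counts in pBabe-GNA13 and 84 and 783 in pBabe-vector. TP63 and DCN, with 6 counts or fewer in any library, were also at 0 there. KRT5, COL1A2 and KRT14 were called higher with the pairs of libraries as a block (edgeR adjusted p = 7.20e-07, 2.14e-08 and 1.71e-05), and COL1A1 was not called. The same fit called 4 of the 9 luminal markers and VWF higher and SYP lower. It called 9.32% of all genes higher and 10.4% lower. The part of the markers in the results was not tested. In bulk RNA, fewer cells that express a gene and less RNA per cell cannot be told apart.

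Expression differed by a wide margin within the family. Counts were divided by the exon length of each gene to compare genes, in CPM per kilobase. In pBabe-vector, ADGRG6 was highest at 58.2 ± 13.2 CPM per kilobase (SD, n = 3), followed by ADGRL1 at 27.5 ± 2.86 and ADGRG1 at 10.6 ± 0.553. ADGRE5 (4.40 to 6.30 CPM per kilobase) and ADGRA3 (4.94 to 5.06) overlapped. Below them came ADGRD1 (0.815 to 1.12 CPM per kilobase), ADGRB2 (0.563 to 1.22) and ADGRV1 (0.651 to 0.696). ADGRB2 overlapped both of its neighbours in this order, whereas all ADGRD1 libraries lay above all ADGRV1 libraries. ADGRA2 was lowest at 0.123 to 0.421 CPM per kilobase. In pBabe-GNA13 the order of the first 3 genes was the same, and ADGRD1 stood at 0.121 to 0.184 CPM per kilobase, below ADGRV1 (0.679 to 0.731) and ADGRB2 (0.515 to 0.742) and overlapping ADGRA2 (0.115 to 0.181). These lengths join all annotated exons of a gene, and which transcripts LNCaP cells use was not examined.

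**Figure D1:**
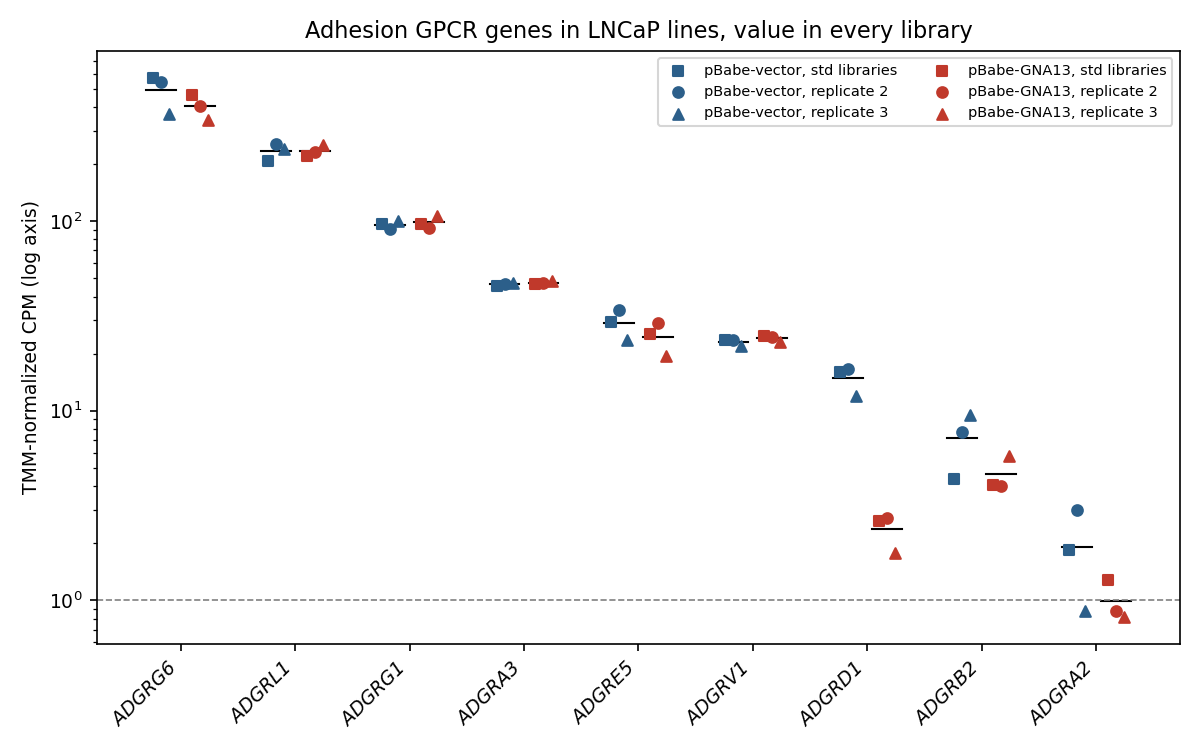
TMM-normalized CPM of the 9 adhesion GPCR genes on a log axis, with 1 point for each library, shapes for std, replicate 2 and replicate 3, and a black bar for the mean of 3 libraries; the dashed line marks 1 CPM. ADGRD1, which was picked for its fall between the lines, lies at 1.77 to 2.70 CPM in pBabe-GNA13 and 12 to 16.5 CPM in pBabe-vector. The lines of the other genes overlap, and 14.7% of all genes at a mean of at least 1 CPM have lines that do not.

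ADGRD1 (GPR133) is a receptor of the Gαs and cyclic AMP arm. The gene lies on chromosome 12 (chr12:130953907-131141469, plus strand, GRCh38). It was counted 98, 92 and 61 times in the std, replicate 2 and replicate 3 libraries of pBabe-GNA13 and 667, 559 and 385 times in the matching pBabe-vector libraries. These counts equal 2.62, 2.70 and 1.77 CPM in pBabe-GNA13 and 15.9, 16.5 and 12 CPM in pBabe-vector. Every pBabe-GNA13 library was below every pBabe-vector library, and replicate 3 was the lowest in both lines. The mean was 2.37 ± 0.515 CPM (SD, n = 3) in pBabe-GNA13 and 14.8 ± 2.45 CPM in pBabe-vector, 6.26-fold higher in the latter, and the fitted log2 fold change was −2.64 (SE 0.22). The difference was alike within the 3 pairs of libraries, at −2.57, −2.59 and −2.72 on the log2 scale, and leaving out any 1 library gave a log2 fold change between −2.77 and −2.47. This was the lowest log2 fold change of the 14062 genes with a mean of at least 1 CPM. At the same level filter, 14.7% of all genes had lines that did not overlap, and since ADGRD1 was picked for this difference nothing is read from its place among them. Exons of the antisense gene ADGRD1-AS1 overlap those of ADGRD1, and whether the counting used strand is not given in the sources used here.

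The fall of ADGRD1 went against its surroundings on the chromosome. Of 620 chromosome 12 genes at that level, 581 showed a log2 fold change above 0 and 39 below 0, and the median was 0.30, whereas the median of all genes at that level was −0.01. ADGRD1 lay 2.94 below the chromosome median on the log2 scale, and 4 chromosome 12 genes were at a log2 fold change of −1 or less. Among genes of the table with a matched position, the next 5 on each side were BRI3BP, AACS, SLC15A4, STX2 and RAN, and SFSWAP, MMP17, ULK1, PUS1 and EP400. BRI3BP, AACS and SLC15A4 lay 5923, 5811 and 2130 kb away. The nearest were RAN, the small GTPase of nuclear transport, at 76.2 kb and STX2, a syntaxin of membrane fusion, at 114.7 kb on one side and SFSWAP, a splicing regulator, at 569.6 kb on the other. All 10 had a log2 fold change above 0, from 0.18 in SFSWAP to 0.58 in SLC15A4. None of the 10 was called by edgeR's quasi-likelihood test without pairs, where 0.139% of all genes were called. With the pairs of libraries as a block 9 of the 10 were called higher, all but MMP17, where 9.32% of all genes were called higher. When, in addition, each chromosome's median was set to 0, 2 of the 10 were called, SLC15A4 and ULK1. That fit called 2456 of all 17297 genes, and 16.7% of those at a mean of at least 1 CPM. The cause of the shift of chromosome 12 was not tested.

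The genes whose pattern over the 6 libraries was most like that of ADGRD1 were searched for among 170 other genes that averaged 1 CPM or more and had an absolute log2 fold change of at least 1. They were TENM1 (Pearson r = 0.993 of log2 CPM over 6 libraries), MAGEA4 (0.988), a gene listed only by its clone (0.984), FLNC (0.977) and LIN7A (0.973). These r are descriptions, since the points share the lines and the pairs of libraries. The 170 genes were also limited to those that differed between the lines for which ADGRD1 was picked, so a high r follows from that choice. The gene listed by its clone averaged 0.744 CPM in pBabe-GNA13 and 1.66 CPM in pBabe-vector, so it passed the level filter through pBabe-vector. TENM1, a teneurin and thus a kind of latrophilin ligand, measured 1.71, 1.68 and 1.37 CPM in pBabe-GNA13 and 5.60, 7.38 and 5.05 CPM in pBabe-vector, with no overlap. LIN7A, a scaffold protein whose gene is also on chromosome 12, had a fitted log2 fold change of −1.28.

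The 8 other receptors were then tested. With line as the only term in edgeR's quasi-likelihood fit none was called, with a smallest Benjamini-Hochberg adjusted p of 0.652. None had an unadjusted p under 0.05, and DESeq2 called none of them either. Their log2 fold changes ran from −0.93 to 0.06, with 4 below 0 and 4 above, and a median of −0.11 against −0.01 for all genes at a mean of at least 1 CPM. None had lines without overlap, against 14.7% of all genes at that level. Exact two-sided permutation tests, which cannot go below 0.10 with 3 libraries against 3, gave p = 0.20 to 1.0 for these 8 genes.

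Libraries of the same tag or number deviated together, and the fit with these pairs as a block gave other calls. The std pair rests on the shared tag alone, since the numbers in its headings differ. With the replicate block 4 of the 8 were called, ADGRG6, ADGRE5, ADGRB2 and ADGRA2, all lower in pBabe-GNA13, and none was called higher. The same fit called 19.7% of all genes, 10.4% of all genes lower, and at a mean of at least 1 CPM it called 23.3% in either direction and 12.5% lower. With so few receptors, nothing about the family is read from the difference between these shares. The same 4 were called when each chromosome's median was also set to 0, a fit that called 16.7% of genes at that level. Only ADGRG6 and ADGRB2 were called by DESeq2 with the block, which called 13.8% of the 14464 genes it gave an adjusted p. ADGRA2 had a mean under 1 CPM in pBabe-GNA13 and passed the filter through pBabe-vector, and without it 3 of 7 were called.

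**Figure D2:**
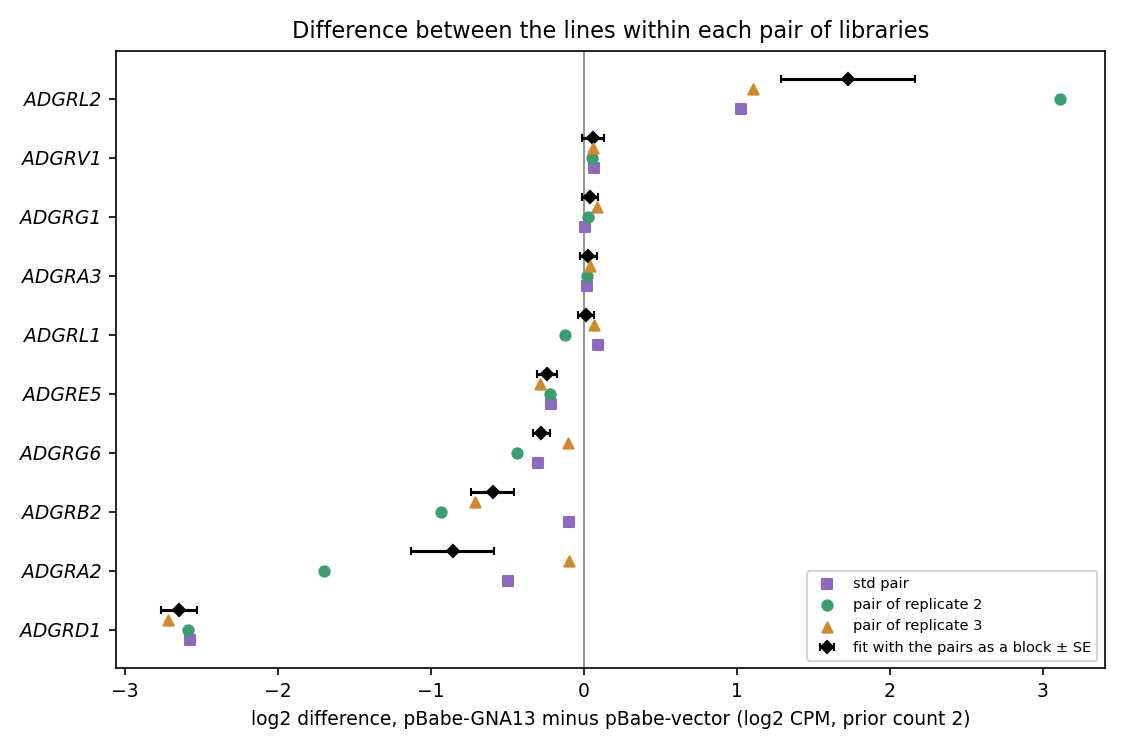
Log2 difference of CPM, pBabe-GNA13 minus pBabe-vector, within each of the 3 pairs of libraries, with the log2 fold change and SE of the fit that takes the pairs as a block, for the 9 receptors and ADGRL2. ADGRD1 lies between −2.72 and −2.57 in the 3 pairs, and ADGRL1, ADGRG1, ADGRA3 and ADGRV1 lie near 0.

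Among the receptors that were lower in the paired fit, the promoters of ADGRG6 and ADGRB2 are shown, since these 2 genes were called by both tools with the block. Each runs from 250 bases before to 50 bases after a start annotated in RefSeq (GRCh38), with CpG dinucleotides in capitals. For both genes this start lies inside the wider span that Gencode gives. Which start LNCaP cells use was not examined. ADGRG6 lies at chr6:142301757-142302056 on the plus strand and ADGRB2 at chr1:31764291-31764590 on the minus strand.
ADGRG6: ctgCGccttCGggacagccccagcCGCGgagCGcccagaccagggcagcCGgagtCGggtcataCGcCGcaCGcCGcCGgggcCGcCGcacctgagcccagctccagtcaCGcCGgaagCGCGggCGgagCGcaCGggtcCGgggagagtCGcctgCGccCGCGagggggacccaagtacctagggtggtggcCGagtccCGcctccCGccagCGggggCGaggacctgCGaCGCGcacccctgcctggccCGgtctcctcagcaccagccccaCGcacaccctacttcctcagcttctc
ADGRB2: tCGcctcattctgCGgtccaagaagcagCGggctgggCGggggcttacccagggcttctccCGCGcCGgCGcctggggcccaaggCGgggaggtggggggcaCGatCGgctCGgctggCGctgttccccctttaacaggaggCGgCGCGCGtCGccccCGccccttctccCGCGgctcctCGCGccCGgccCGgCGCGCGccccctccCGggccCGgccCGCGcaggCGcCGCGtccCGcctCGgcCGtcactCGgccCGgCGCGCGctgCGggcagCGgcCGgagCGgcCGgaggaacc
These windows held 36 CpG in ADGRG6 and 48 in ADGRB2, against a median of 14 (quartiles 4 and 28) over 35116 promoters of the same length. Promoters of receptors that were not called with the block held 40 CpG in ADGRA3, 19 in ADGRV1 and 5, 6 and 8 at 3 starts of ADGRG1, so the number did not separate them. The windows of ADGRV1 and ADGRG1 also lie inside the Gencode spans of these genes. The letters TGACG, a cyclic AMP response element without its other side, were found once in ADGRB2 and not in ADGRG6 on either strand, and 24.6% of all promoters hold them. The TEAD core GGAATG was found in neither, and 14.0% of all promoters hold it. Of the 9 genes, 5 had a promoter entry.

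ADGRG6 (GPR126), which Schwann cells need for myelination, was the highest receptor. It measured 464, 402.6 and 339.9 CPM in the std, replicate 2 and replicate 3 libraries of pBabe-GNA13 and 570.5, 543.6 and 365.2 CPM in pBabe-vector. It was lower in pBabe-GNA13 in all 3 pairs, but the std library of pBabe-GNA13 lay above replicate 3 of pBabe-vector. The log2 fold change was −0.29 (SE 0.19, edgeR adjusted p = 0.817), and with the block −0.28 (SE 0.06, adjusted p = 0.000533). The gene made up 42.6% to 52.4% of the summed CPM of the 9 receptors in pBabe-GNA13 and 44.5% to 57.4% in pBabe-vector. The summed CPM was 886, 836 and 798 in pBabe-GNA13 and 994, 1018 and 821 in pBabe-vector, and the share of ADGRD1 in it was 0.222% to 0.323% against 1.46% to 1.62%.

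ADGRB2 (BAI2), a receptor known mainly from brain, measured 4.07, 3.996 and 5.76 CPM in pBabe-GNA13 and 4.36, 7.68 and 9.44 CPM in pBabe-vector. The std library of pBabe-vector fell within the range of pBabe-GNA13, and the difference within the std pair was −0.10 on the log2 scale against −0.93 and −0.71 in the others. The log2 fold change was −0.63 (SE 0.30, edgeR adjusted p = 0.652), and with the block −0.60 (SE 0.14, adjusted p = 0.00281). Leaving out each pair in turn kept the blocked adjusted p of edgeR between 7.08e-07 and 0.0377 for ADGRB2 and between 1.17e-05 and 0.00549 for ADGRG6.

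ADGRE5 (CD97), whose ligands include the complement regulator CD55, measured 25.2, 29.1 and 19.4 CPM in pBabe-GNA13 and 29.4, 33.9 and 23.7 CPM in pBabe-vector. Replicate 2 was highest and replicate 3 lowest in both lines, so the lines overlapped although each pair was lower in pBabe-GNA13, with log2 differences of −0.22, −0.22 and −0.29. The log2 fold change was −0.24 (SE 0.19, edgeR adjusted p = 0.875), and with the block −0.24 (SE 0.07, adjusted p = 0.0116). Without the pair of replicate 3 the blocked adjusted p of edgeR was 0.117, and DESeq2 with the block gave 0.0744.

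ADGRA2 (GPR124), a co-receptor for Wnt7 with RECK in brain vessels, was the gene just inside the level filter, at a mean of 1.44 CPM over 6 libraries. It measured 1.28, 0.881 and 0.814 CPM in pBabe-GNA13 and 1.84, 2.98 and 0.873 CPM in pBabe-vector. Replicate 2 of pBabe-vector was highest, and the replicate 3 libraries were nearly level. The log2 fold change was −0.93 (SE 0.44, edgeR adjusted p = 0.655), and with the block −0.86 (SE 0.27, adjusted p = 0.0250). Without the pair of replicate 2 the blocked adjusted p was 0.538, and DESeq2 with the block gave 0.193. Its exons overlap those of BRF2 on the other strand.

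The other 4 receptors were not called in either fit. ADGRL1 (latrophilin 1), a neuronal receptor of teneurins and FLRT proteins, measured 220.3, 232.8 and 252.2 CPM in pBabe-GNA13 and 206.4, 253.5 and 240.3 CPM in pBabe-vector. Its direction differed between pairs, lower in pBabe-GNA13 in 1 of 3. ADGRG1 (GPR56), a receptor of cortical development that couples to Gα12 and Gα13, measured 97.0, 92.3 and 106.4 CPM in pBabe-GNA13 and 96.3, 90.3 and 100.2 CPM in pBabe-vector. The lines of ADGRG1 overlapped, with replicate 2 lowest in both. ADGRA3 (GPR125), linked to Wnt and planar polarity signalling, measured 46.3, 47.1 and 48.3 CPM in pBabe-GNA13 and 45.7, 46.4 and 46.9 CPM in pBabe-vector. ADGRV1, the very large receptor affected in Usher syndrome, measured 24.7, 24.4 and 23.0 CPM in pBabe-GNA13 and 23.5, 23.5 and 22.03 CPM in pBabe-vector, and its exons overlap those of LYSMD3. ADGRG1, ADGRA3 and ADGRV1 were slightly higher in pBabe-GNA13 in all 3 pairs, with overlap between the lines. The log2 fold changes of these 4 genes were 0.01 (SE 0.11), 0.04 (SE 0.10), 0.03 (SE 0.08) and 0.06 (SE 0.10) in the order given, and their adjusted p with the block in edgeR was 0.912, 0.644, 0.787 and 0.627.

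Of the 6 ADGR genes under the level filter, ADGRL2 (latrophilin 2) was just outside it at a mean of 0.546 CPM. It measured 0.883, 0.940 and 0.669 CPM in pBabe-GNA13 and 0.405, 0.0591 and 0.281 CPM in pBabe-vector, from 23 to 33 counts against 2 to 17. The lines did not overlap, and pBabe-GNA13 was the higher. The log2 fold change was 1.70 (SE 0.54, edgeR adjusted p = 0.406), and with the block 1.73 (SE 0.44, adjusted p = 0.00544), so ADGRL2 was called higher in the paired fit, whereas the 4 receptors above were called lower. With chromosomes centred as well the adjusted p of edgeR was 0.0107, and without the pair of replicate 2 the blocked value was 0.0816. That pair holds the library of pBabe-vector with 2 counts, under the floor of 3 counts. The remaining 5 genes, ADGRG2, ADGRB1, ADGRD2, ADGRL3 and ADGRE2, had means of 0.0236 to 0.473 CPM. ADGRL3 had 2 counts in each pBabe-GNA13 library and 0 in each pBabe-vector library, both at or under the floor of 3 counts.

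Genes of the pathway around these receptors were taken from 6 lists. Of 29 ligands and binding partners 23 were in the table, 13 of them at a mean of at least 1 CPM. The quasi-likelihood test of edgeR called 1 lower, TENM1 (log2 fold change −1.92, SE 0.22, Benjamini-Hochberg adjusted p = 0.0352), which fell in 3 of 3 pairs. Without any 1 library other than replicate 3 of pBabe-vector, 0 of the list were called, and the adjusted p of TENM1 ran from 5.91e-11 to 0.241 over the alternatives without the block. The block raised this to 9 of 23, 3 higher and 6 lower. Of all genes 0.139% were called without the block and 19.7% with it (9.32% higher and 10.4% lower), and the counts of the lists that follow stand beside these shares. Among them CD55, the ligand of ADGRE5, measured 0.910, 1.32 and 0.785 CPM in pBabe-GNA13 and 4.32, 3.07 and 1.09 CPM in pBabe-vector (log2 fold change −1.50). UNC5C, a netrin receptor, had a log2 fold change of −1.35, and C1QL1, a secreted partner of the ADGRB subfamily, had −0.85. UNC5C averaged 0.689 CPM in pBabe-GNA13 and 1.76 CPM in pBabe-vector, so it passed the level filter through pBabe-vector. CD9, a tetraspanin that binds ADGRG1 complexes and is encoded on chromosome 12, was called higher with the block at 0.34. The median log2 fold change was −0.06 over the 23 ligands and partners. Over the 13 at a mean of at least 1 CPM it was −0.18, against −0.01 for all genes at that level. With each chromosome centred as well 4 remained called, where 2456 of all 17297 genes were, and CD9 was not among them (edgeR adjusted p = 0.618).

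The flamingo cadherins CELSR1 to CELSR3, adhesion GPCRs of planar cell polarity with other symbols, were not called without the block in any of 3 genes. CELSR2 measured 83.4, 100.7 and 84.7 CPM in pBabe-GNA13 and 72.7, 89.7 and 66.0 CPM in pBabe-vector. It was higher in 3 of 3 pairs with overlap between the lines (log2 fold change 0.23, SE 0.14, edgeR adjusted p = 0.768, and 0.00178 with the block).

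Of the 9 Gα subunits in the table other than the overexpressed GNA13, none was called without the block, where 0.139% of all genes were, and 3 with it, 1 higher and 2 lower, where 19.7% were. GNAI1, a subunit that inhibits adenylyl cyclase, measured 15.9, 9.17 and 7.91 CPM in pBabe-GNA13 and 42.1, 36.6 and 20.1 CPM in pBabe-vector. Its lines did not overlap (log2 fold change −1.59, SE 0.34, edgeR adjusted p = 0.226, and 1.54e-12 with the block). GNAS, the gene of Gαs through which ADGRD1 signals, measured 795.7, 873.9 and 784.2 CPM in pBabe-GNA13 and 1013, 1099 and 966 CPM in pBabe-vector. Its lines did not overlap either (log2 fold change −0.33, SE 0.11, edgeR adjusted p = 0.425, and 1.25e-05 with the block). GNAS lies on chromosome 20, whose median log2 fold change was −0.21, and with each chromosome centred the blocked adjusted p of edgeR was 0.0401. GNAQ had a log2 fold change of 0.32 and was called higher with the block, but not with each chromosome centred as well (edgeR adjusted p = 0.240). GNA12, the closest relative of GNA13, had 0.03 (SE 0.08).

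Of 17 other receptors that couple to Gα12 or Gα13, 14 were in the table. None was called without the block and 4 with it, against 0.139% and 19.7% of all genes. CXCR4 (1.98), the receptor of the chemokine CXCL12, and LPAR6 (0.39), a receptor of lysophosphatidic acid, were called higher with the block, and S1PR3 (−0.48) and F2RL1 (−0.20) lower, each value the log2 fold change of that fit. In the std pair S1PR3 and F2RL1 went the other way, at 0.32 and 0.01 on the log2 scale. CXCR4 rested on low values, at 0.643, 3.35 and 0.930 CPM in pBabe-GNA13 and 0.167, 0.679 and 0.343 CPM in pBabe-vector.

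On the cyclic AMP arm 11 of 14 adenylyl cyclases, protein kinase A subunits and CREB1 were in the table, and none was called with or without the block. The list had a median log2 fold change of 0.05 at a mean of at least 1 CPM. PRKACB, a catalytic subunit of protein kinase A, was the highest of it (log2 fold change 0.01, SE 0.11), followed by PRKAR1A (−0.11, SE 0.12). Of 7 GRKs and arrestins, which switch receptors off, none was called without the block and 1 with it, against 0.139% and 19.7% of all genes. ARRB2 measured 62.6, 61.6 and 60.8 CPM in pBabe-GNA13 and 74.4, 74.1 and 71.5 CPM in pBabe-vector and was called lower with the block (log2 fold change −0.25, SE 0.05, edgeR adjusted p = 0.000678, and SE 0.08, adjusted p = 0.411 without it).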

How the data were processed

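RNA of 3 pBabe-GNA13 and 3 pBabe-vector libraries was sequenced as paired ends. The authors checked reads with FastQC 0.11.7, aligned them with STAR and aggregated them with featureCounts. The values the authors deposited are whole-number read counts per gene. The version of STAR, the gene filter and strand use are not given in the sources used here. All 6 columns were used and 0 were left out. Headings name line and number, and 1 library of each line carries the tag std. The std headings carry different numbers, and that of pBabe-GNA13 repeats the number of its replicate 2. The std library of pBabe-GNA13 is tied to its line only, so the std pair rests on the shared tag. Nothing further describes how the cultures of a replicate were kept apart, so p-values measure the spread between these libraries of 1 line each.

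TMM factors and the quasi-likelihood functions glmQLFit and glmQLFTest from edgeR 4.0.16 in R 4.3.3 were applied to 17297 genes, with line as the only term. A gene was called where its Benjamini-Hochberg adjusted p lay under 0.05. CPM are TMM-normalized, and log2 CPM used a prior count of 2. The SD values give the spread between the libraries of a line, and the SE values come from the edgeR fits. The floor in counts covers counting error only. The level filter used the mean of unscaled CPM. Same-tagged libraries were compared by their deviations from the group means over 12778 genes. Pearson's r was 0.659 in the std pair, 0.807 and 0.888 in the other pairs and −0.736 to 0.125 otherwise, so they were treated as pairs. The std library of pBabe-GNA13 had r = −0.0306 with replicate 2 of pBabe-vector. Deviations from a mean of 3 libraries sum to 0, so a high r within pairs lowers the r otherwise. These r come from the same data that the block is used on. Alternatives were the block, DESeq2 1.42.0, limma voom 3.58.1, RLE factors, a low count filter, another prior count, chromosome centring and leaving out each library. The fit was tested on simulated data.

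Positions and lengths are from Gencode 44 (the authors used Gencode 38, both GRCh38). Of the symbols 13709 matched directly, 694 by an older symbol, 79 had several IDs and 2815 none. One list of genes is not reported here. Members and lists were chosen with earlier results of these data known. Named are GNA13, all ADGR genes at a mean of at least 1 CPM and the one just outside, members of each list called with or without the block (at most 5, otherwise the 2 highest), the 10 neighbours and the 5 most alike genes. KRT5, KRT14, TP63, COL1A1, COL1A2, DCN, ADGRD1-AS1, BRF2, LYSMD3, GNA12, ADGRG2, ADGRB1, ADGRD2, ADGRL3 and ADGRE2 were named outside this rule. Tools were Python 3.11.15, NumPy 2.4.6, pandas 2.3.3 and matplotlib 3.10.9.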

Additional observations from a re-analysis of the deposited data

How the results depend on the processing

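The log2 fold change of ADGRD1 kept its direction under all 17 alternatives (−2.94 to −2.47), and that of GNA13 did too (3.46 to 3.60). Since ADGRD1 was picked for its fall in these libraries and GNA13 is the transgene, neither range is read as support. With the replicate block, the calls were 4 for the 8 receptors, 9 for ligands and partners, 1 for flamingo cadherins, 4 for Gα subunits with GNA13, 4 for other coupled receptors, 1 for GRKs and arrestins, 9 for the neighbours and 1 for ADGRL2, and the block changed the call of none of the cyclic AMP list. With the block and each chromosome centred, chosen after seeing the data, in the same order up to the neighbours they were 4, 4, 2, 3, 4, 1 and 2, and 1 for the cyclic AMP list. With the block in DESeq2, also chosen after seeing the data, they were 2, 6, 1, 3, 2, 1 and 8. Without the block, DESeq2 called 2 ligands and 2 Gα subunits and voom called 0 ligands. Leaving out libraries or pairs gave 0 to 4 receptors, 0 to 7 ligands, 0 to 1 flamingo cadherins, 1 to 4 Gα subunits, 0 to 4 other receptors, 0 to 2 of the cyclic AMP list, 0 to 2 GRKs and arrestins and 0 to 9 neighbours. ADGRL1 turned sign when libraries were left out (−0.0705 to 0.0772), and ADGRG1 did too (−0.0086 to 0.0896), and the cause was not tested. Over all genes, 24 were called without the block, 3407 with it, 2000 by DESeq2 with it, 271 by DESeq2, 10 by voom and 2 to 15 without 1 library. With the block and each chromosome centred, 2456 were called. Counts under about 3 in a library limit ADGRL3, ADGRD2 and ADGRE2, and ADGRL2 in replicate 2 of pBabe-vector.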
